A study of Mus musculus with 6 samples.

Results

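De novo lipogenesis, the making of fatty acids from citrate carbon, was examined in mouse liver through 10 genes, of 55487 in the deposited count table. The genes were Slc13a5, Acly, Acaca, Acacb, Fasn, Me1, Elovl6, Scd1, Srebf1 and Thrsp, found by matching each Ensembl identifier to its symbol in GRCm38. The list was selected from knowledge of the pathway with the fold changes of the same treatment comparison already known, so the members' own differences are given as a description, without a p-value. Livers came from wild-type male mice kept on a normal chow diet, injected subcutaneously with GalNAc-siNC or with GalNAc-siRnf10 and killed at 17 weeks of age. C57BL/6J is the wild-type strain that the study's methods name. The paper calls the conjugate GalNAc-siRnf10-2. Both groups carried an siRNA on the same N-acetylgalactosamine (GalNAc) ligand, which hepatocytes take up through the asialoglycoprotein receptor. GalNAc-siNC is the control siRNA, and GalNAc-siRnf10 targets the mRNA of Rnf10, an E3 ubiquitin ligase. There were 3 mice in each group, with 1 library per mouse, and all 6 libraries carried the same batch label.

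In hepatocytes, citrate reaches the cytosol from mitochondria or, through the plasma membrane transporter encoded by Slc13a5, from the blood. ATP citrate lyase cleaves it to acetyl-CoA, the acetyl-CoA carboxylases make malonyl-CoA, fatty acid synthase builds palmitate with NADPH, and ELOVL6 and SCD1 elongate and desaturate the product. SREBP1, the product of Srebf1, and ChREBP, the product of Mlxipl, switch these genes on when insulin and carbohydrate are plentiful, and THRSP is a small nuclear and cytosolic protein that promotes the same synthesis.

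Total counts were between 26854377 and 33058645 per library, so that 3 counts, taken as the floor, were at most 1.12e-05% of a library, which covers counting error only. GalNAc-siNC mouse 1 stood apart from its group, with a chi-square per gene of 30.7 and 30.0 against the other GalNAc-siNC mice, which differed from each other by 10.3. The values between GalNAc-siRnf10 mice were 4.70 to 5.37. Rnf10 had a mean of 4148 ± 347 normalized counts (SD, n = 3 mice) with GalNAc-siNC and 1784 ± 41.8 (n = 3) with GalNAc-siRnf10, and its log2 fold change was -1.22 (adjusted p = 3.29e-09, edgeR's quasi-likelihood test, Benjamini-Hochberg). Of 14046 genes tested, 1965 passed an adjusted p of 0.05 and are referred to as called, 943 of them higher and 1022 lower with GalNAc-siRnf10. RNA was taken from whole liver, in which fewer cells of a type and less RNA per cell cannot be told apart.

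The stretches before the annotated starts of Slc13a5, Acly, Fasn and Srebf1 are shown because of the place of these genes in the pathway. They enter it (Slc13a5, Acly), end it (Fasn) or regulate it (Srebf1), and their differences below vary in size. Each stretch holds the 250 bases before a RefSeq transcript start in GRCm38.p6, on the minus strand, written 5′ to 3′, and the capitals mark every match, on either strand, to the motifs searched.

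Slc13a5, start at the gene's 5′ end (chr11:72267162-72267411): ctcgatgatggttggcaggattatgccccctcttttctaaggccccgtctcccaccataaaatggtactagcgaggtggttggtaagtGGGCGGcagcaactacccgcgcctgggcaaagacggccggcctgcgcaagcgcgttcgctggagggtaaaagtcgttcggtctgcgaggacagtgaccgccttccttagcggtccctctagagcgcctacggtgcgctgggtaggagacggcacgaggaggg
Slc13a5, the other RefSeq start (chr11:72266605-72266854): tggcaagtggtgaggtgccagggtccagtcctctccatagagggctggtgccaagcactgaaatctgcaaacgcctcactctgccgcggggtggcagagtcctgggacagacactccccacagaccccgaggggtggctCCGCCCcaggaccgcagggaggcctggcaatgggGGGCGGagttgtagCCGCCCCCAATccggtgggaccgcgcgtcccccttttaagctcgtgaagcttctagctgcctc
Acly (chr11:100528001-100528250): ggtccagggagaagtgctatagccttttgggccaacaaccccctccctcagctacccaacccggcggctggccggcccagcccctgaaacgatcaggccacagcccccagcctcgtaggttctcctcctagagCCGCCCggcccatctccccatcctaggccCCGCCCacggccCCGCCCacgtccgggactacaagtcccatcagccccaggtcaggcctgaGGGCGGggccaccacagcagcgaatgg
Fasn (chr11:120824548-120824797): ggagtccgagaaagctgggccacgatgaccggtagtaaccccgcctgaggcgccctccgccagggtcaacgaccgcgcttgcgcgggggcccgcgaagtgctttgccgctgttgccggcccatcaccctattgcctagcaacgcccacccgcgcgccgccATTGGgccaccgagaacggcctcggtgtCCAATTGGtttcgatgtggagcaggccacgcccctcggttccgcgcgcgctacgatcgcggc
Srebf1, the start farthest inside the gene (chr11:60210472-60210721): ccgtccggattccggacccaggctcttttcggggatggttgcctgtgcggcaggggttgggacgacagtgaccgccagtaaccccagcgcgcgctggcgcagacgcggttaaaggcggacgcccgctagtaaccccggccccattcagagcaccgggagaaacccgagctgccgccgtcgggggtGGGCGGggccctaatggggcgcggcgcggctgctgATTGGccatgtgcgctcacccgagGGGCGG

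There were 5 motifs, searched on both strands in windows that ran from 250 bases before to 50 after the start. The sterol regulatory element, bound by SREBP, was taken as TCACNCCAC. The E-box, to which USF proteins among others bind, was taken as CACGTG. The third was the box that NF-Y binds, named after its letters, CCAAT. The GC box of Sp1 was taken as GGGCGG. The LXR direct repeat was taken as AGGTCA in a pair, with 4 bases of any kind between them. RefSeq windows were found for 9 of the 10 members, 13 windows in all. A CCAAT box was present in 8 of the 13 member windows, from 7 genes, against 37.4% of 32851 windows over all genes. A GC box was present in 6 of the 13, from 4 genes, against 35.7%. The sterol regulatory element, the E-box and the LXR repeat, with shares of 1.24%, 7.15% and 0.0152% over all windows, matched none of the 13. Only these exact letters were searched, and the LXR repeat occurred in 5 of the 32851 windows. Sites with other letters would be missed, so the lack of a match does not show that a site is absent. In Fasn a CCAAT box on each strand overlapped in the run CCAATTGG, and in the Slc13a5 start inside the gene a GC box on the other strand adjoined a CCAAT box. Both Slc13a5 stretches lie wholly within exons of 1700051A21Rik, a noncoding transcript of the opposite strand. A match of letters is a description of the sequence and does not show that a factor binds there.

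The 10 members moved in different directions. The citrate transporter gene Slc13a5 differed most, and its mean fell by 66.3% with GalNAc-siRnf10, while Acly, the next step, was at nearly the same level in both groups. Both acetyl-CoA carboxylase genes, Fasn and Scd1 were lower by smaller amounts, and Elovl6 and Thrsp were higher. By the adjusted p of 0.05, 5 members were called lower (Slc13a5, Acaca, Acacb, Fasn, Scd1), 2 higher (Elovl6, Thrsp) and 3 were not called (Acly, Me1, Srebf1). Over all tested genes 14.0% were called, 7.28% lower and 6.71% higher. All 10 passed the filter on low counts. Since the list was drawn up with this comparison known, nothing is read from these counts.

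**Figure D1:**
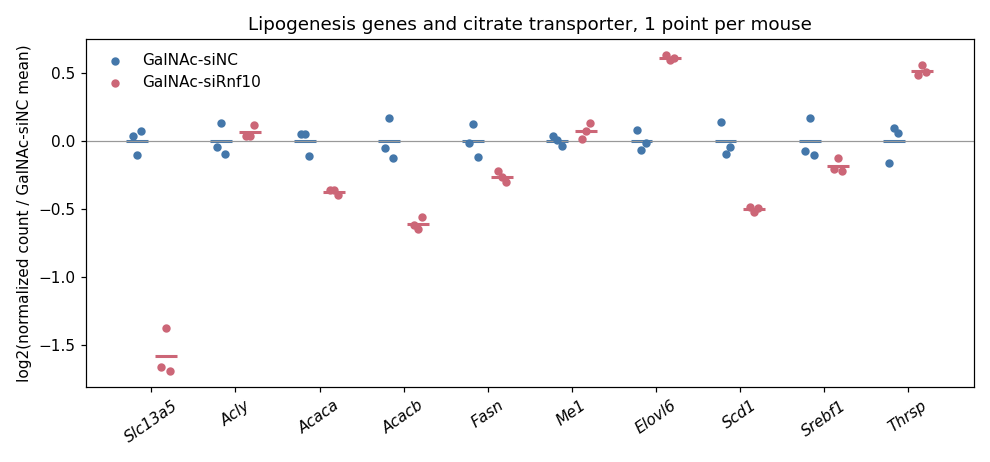
Normalized counts of the 10 lipogenesis genes in each mouse, divided by the gene's GalNAc-siNC mean and drawn on a log2 axis, with 1 point per mouse (n = 3 per group) and a bar at each group mean. Slc13a5 lies far below its control level in all 3 GalNAc-siRnf10 mice, Elovl6 and Thrsp lie above it, and the groups overlap for Acly and Me1.

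Slc13a5 (ENSMUSG00000020805), which encodes the sodium-coupled citrate transporter of the plasma membrane, lies on the minus strand of chromosome 11 from 72241989 to 72267222 in GRCm38. The GalNAc-siNC mice had 281, 256 and 289 normalized counts of Slc13a5, and the GalNAc-siRnf10 mice 87.0, 106 and 85.2. Every treated mouse was far below every control mouse. The mean was 275 ± 17.2 (SD, n = 3) against 92.8 ± 11.6 (n = 3), a log2 fold change of -1.56 with a standard error of 0.145, which was the 22nd lowest of the 14046 tested genes. These values rest on 248 to 323 raw counts per control library and 77 to 111 per treated library, the fewest of any member. It lay between -1.68 and -1.50 when each mouse was left out in turn. The opposite-strand gene 1700051A21Rik shares 473 exonic bases with Slc13a5 but had 3 counts in all 6 libraries together.

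Acly (ENSMUSG00000020917) encodes ATP citrate lyase, the enzyme that turns cytosolic citrate into acetyl-CoA, and lies on the minus strand of chromosome 11 from 100476353 to 100528000. Acly had 5647, 6353 and 5448 normalized counts in the control mice and 5954, 5964 and 6313 in the treated mice. The treated mice fell inside the range of the controls. The log2 fold change was 0.06 with a standard error of 0.0657, and it stayed between 0.01 and 0.13 when each mouse was left out.

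Acetyl-CoA carboxylase 1, which makes the malonyl-CoA for synthesis in the cytosol, is encoded by Acaca (ENSMUSG00000020532, plus strand of chromosome 11 from 84129672 to 84401651). Acaca had 2826, 2826 and 2525 normalized counts in the control mice and 2123, 2119 and 2066 in the treated mice. All treated mice were below all controls and lay close together. Its log2 fold change was -0.37 with a standard error of 0.0683. Of the distinct 100-base windows of Acaca transcripts, 23.7% also occur in transcripts of other genes, nearly all of them in the pseudogene Gm5182, so reads could be split between the genes. Gm5182 had 225 ± 26.4 normalized counts with GalNAc-siNC and 165 ± 11.3 with GalNAc-siRnf10 (SD, n = 3 each), and adding its counts to those of Acaca gave a log2 ratio of -0.38.

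Acacb (ENSMUSG00000042010, plus strand of chromosome 5 from 114146535 to 114250761) encodes acetyl-CoA carboxylase 2, a mitochondrial outer membrane enzyme whose malonyl-CoA inhibits the carnitine palmitoyltransferase CPT1A. It had 2344, 2724 and 2230 normalized counts in the control mice and 1582, 1552 and 1653 in the treated mice. The groups were clearly apart, with the lowest control above the highest treated mouse. At -0.61, with a standard error of 0.0788, the log2 fold change was the most negative of the members after Slc13a5. Acaca and Acacb shared no 100-base window, so their reads could be separated.

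Fasn (ENSMUSG00000025153, minus strand of chromosome 11 from 120805846 to 120824547), the gene of fatty acid synthase, had 10754, 11809 and 10019 normalized counts in the control mice and 9293, 9041 and 8784 in the treated mice. The groups did not overlap, but the lowest control was near the highest treated mouse. The difference was -0.26 on the log2 scale, with a standard error of 0.0631. Its call was not kept in every setting. Corrected for GC content and gene length the log2 fold change was -0.11 and was not called. Without GalNAc-siRnf10 mouse 2 (-0.26) or mouse 3 of that group (-0.24) it was not called either, though its size changed little. In these 2 settings the lower calls over all genes also fell, from 1022 to 586 and 581. At 57.9%, the GC content of the Fasn exons was above that of every other member but Srebf1.

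Me1 (ENSMUSG00000032418, minus strand of chromosome 9 from 86581371 to 86695953) encodes cytosolic malic enzyme, which supplies NADPH for fatty acid synthesis. It had 3765, 3677 and 3571 normalized counts with GalNAc-siNC and 3710, 3847 and 4020 with GalNAc-siRnf10. The groups overlapped, and the log2 fold change was 0.07 with a standard error of 0.0620.

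The genes acting on finished palmitate differed in opposite directions. Elovl6 (ENSMUSG00000041220, plus strand of chromosome 3 from 129532355 to 129638495), which encodes the elongase that turns palmitate into stearate, had 2112, 1910 and 1978 normalized counts in the control mice and 3097, 3009 and 3052 in the treated mice. The treated mice were all well above the controls, with a log2 fold change of 0.61 and a standard error of 0.0660. Scd1 (ENSMUSG00000037071, minus strand of chromosome 19 from 44394455 to 44407879), the gene of the desaturase that makes oleate from stearate, had 76681, 65227 and 67672 normalized counts in the control mice and 49963, 48562 and 49664 in the treated mice. All treated mice were below all controls, and control mouse 1, whose library stood apart, had the highest value. The log2 fold change of Scd1 was -0.50 with a standard error of 0.0586, and -0.43 without control mouse 1. Its paralog Scd2, with which it shares 48 windows of 100 bases, had 457 counts in the 6 libraries together, 0.126% of those of Scd1.

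Srebf1 (ENSMUSG00000020538, minus strand of chromosome 11 from 60199089 to 60222581), which encodes the transcription factor SREBP1, had 6513, 7686 and 6391 normalized counts in the control mice and 5956, 6276 and 5879 in the treated mice. All treated mice were below all controls, by a small margin, and control mouse 2 was well above the other two. On the log2 scale the difference was -0.18, with a standard error of 0.0702, and it was not called. Without control mouse 1 it was -0.22 and was called lower, as it also was with library totals alone (-0.23) or without a filter on low counts (-0.19), and with the correction for GC content and length it was -0.04. The file counts the Srebf1 gene as a whole, so SREBP1a and SREBP1c were not separated. Rai1, on the opposite strand, overlaps 109 exonic bases of Srebf1, and its own means, 435 ± 93.8 and 343 ± 11.0 normalized counts (SD, n = 3 each), differed by fewer counts than those of Srebf1 but by more on the log2 scale, at -0.34, and its groups did not overlap either. The part of Rai1 reads in the Srebf1 counts was not tested.

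Thrsp (ENSMUSG00000035686, minus strand of chromosome 7 from 97412938 to 97417730) encodes the thyroid hormone responsive protein, also known as Spot14, which promotes lipogenesis. It had 8192, 9757 and 9554 normalized counts in the control mice and 12828, 13450 and 12987 in the treated mice. The treated mice were all well above the controls. Its log2 fold change was 0.51 with a standard error of 0.0653, and 0.44 without control mouse 1, which had the lowest value.

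Among the members, 6 had a negative and 4 a positive log2 fold change, and the median was -0.22, or -0.18 without Slc13a5, against 0.0022 over all tested genes. With the correction for GC content and gene length the median over the members was -0.075. The ranges of the groups did not overlap for 8 members, 6 lower and 2 higher. This was so for 32.8% of all tested genes, 16.4% lower and 16.5% higher. The 10 genes together took 0.414%, 0.383% and 0.371% of the counts in the control libraries and 0.312%, 0.311% and 0.316% in the treated libraries. Most of that difference was Scd1, which made up 58.1% to 64.4% of the members' counts in control mice and 51.7% to 52.8% in treated mice. Without Scd1 the other 9 genes took 0.147%, 0.160% and 0.142% in the control and 0.147%, 0.150% and 0.150% in the treated libraries, so the groups overlapped. The members lie on 6 chromosomes, 5 of them (Slc13a5, Acly, Acaca, Fasn, Srebf1) on chromosome 11. The 1106 tested genes of chromosome 11 had a median log2 fold change of -0.02, and 8.59% of them were called lower.

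Levels between genes were compared as CPM (counts scaled to library size) per kilobase of the gene length given in the table. In control mice Scd1 was the most abundant member by far, at 481 ± 41.6 (SD, n = 3), followed by Thrsp at 141 ± 13.1. Srebf1 at 41.1 ± 4.28, Acly at 37.1 ± 3.04, Fasn at 33.4 ± 2.77 and Me1 at 32.2 ± 0.851 formed a group in which each neighbor in the order overlapped the next over the 3 mice. Elovl6 at 10.5 ± 0.538, Acacb at 8.51 ± 0.905, Acaca at 5.38 ± 0.343 and Slc13a5 at 1.88 ± 0.117 followed without overlap. Slc13a5 was thus the least abundant member, ranked 7941 among the 14046 tested genes, whereas Scd1 ranked 106. In treated mice the order of levels changed inside the middle group, with Acly at 38.8 before Srebf1 at 36.1 and Me1 at 33.8 before Fasn at 27.8, and Srebf1 and Me1 were then the sole neighbors that overlapped. With GalNAc-siRnf10 the level of Slc13a5 was 0.633 ± 0.0791. The deposited length counts every annotated exon, and with the longest transcript instead, Acaca (9.66) came before Acacb (9.33) and Me1 (37.6) before Fasn (36.4) in control mice.

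**Figure D2:**
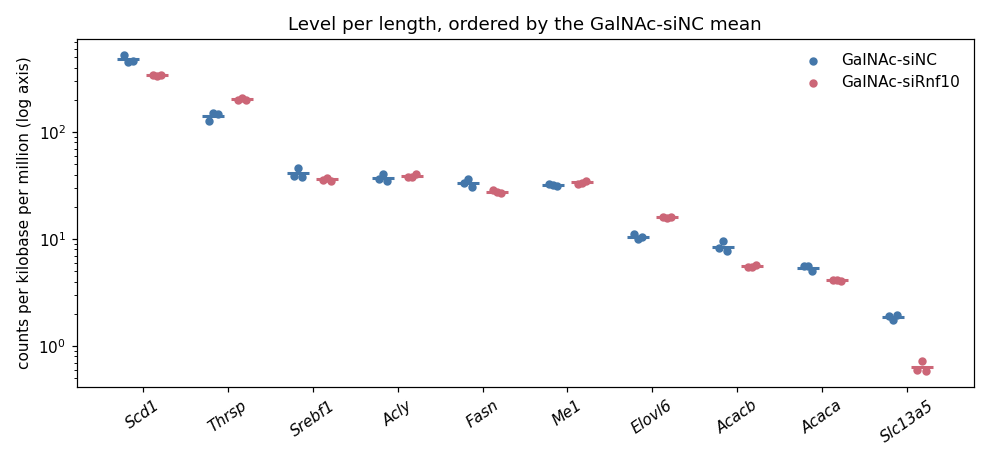
Level of each member in CPM per kilobase of gene length, on a log10 axis, with 1 point per mouse and a bar at the mean of each group (n = 3). Levels run from Scd1 at 481 to Slc13a5 at 1.88 in control mice, and Slc13a5 drops to 0.633 in treated mice.

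Mice of the same group also differed from each other. In the control group, mouse 2 had the highest normalized count of Acly, Acaca, Acacb, Fasn, Srebf1 and Thrsp, 6 of the 10 members (for Acaca, level with mouse 1 to the nearest count), and the lowest of Slc13a5, Elovl6 and Scd1. Mouse 3 was lowest for Acly, Acaca, Acacb, Fasn, Me1 and Srebf1. The genes of malonyl-CoA and palmitate synthesis and their regulator therefore ranked their highest and lowest control mice alike, while Slc13a5 and Scd1 did not follow them. Genes outside the list, such as Hnf4a and Cry2, also had mouse 2 highest and mouse 3 lowest. The share of all tested genes with this order was not counted, so nothing particular to the members is read from it. On the log2 scale, the range over the control mice was 0.29 for Acacb, 0.27 for Srebf1, 0.24 for Fasn, 0.22 for Acly and 0.17 for Slc13a5. Over the treated mice the range was 0.32 for Slc13a5, whose counts are low, and between 0.04 and 0.12 for the other 9 members. The median coefficient of variation over the members was 8.23% in control and 3.03% in treated mice, against 11.1% and 7.33% over all tested genes. The members and the tested genes were not matched for level, so nothing particular to the members is read from this.

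**Figure D3:**
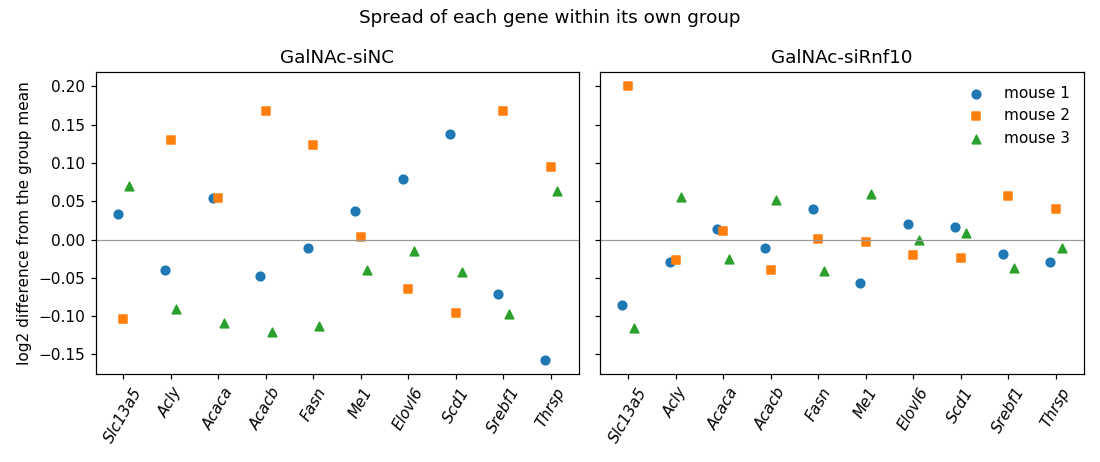
Log2 deviation of each member in each mouse from the mean of that mouse's own group, with control mice and treated mice (n = 3 each) in separate panels. Control mouse 2 is highest for 6 of the 10 members, and the treated mice spread less than the control mice for most members.

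Within the list, the profiles over the 6 mice most alike, by the root-mean-square difference of log2 normalized counts centered on the control mean, were Acly and Me1 (0.0661), Fasn and Srebf1 (0.0733), and Acaca and Fasn (0.0883). Elovl6 and Thrsp, the higher members, differed by 0.142. Slc13a5 had no near neighbor in the list, and the closest, Acacb, differed by 0.711. The measure was also taken against 10935 other tested genes, those averaging at least 50 normalized counts. The 5 nearest to Slc13a5 were Lcn2 (0.129), Foxq1 (0.149), Myc (0.195), Klf10 (0.207) and Tchh (0.215). Lcn2 encodes the secreted protein lipocalin 2, Foxq1, Myc and Klf10 encode transcription factors, and Tchh encodes trichohyalin. Their log2 fold changes were -1.44, -1.55, -1.44, -1.35 and -1.54. Likeness over these mice mostly measures the difference between the groups, which was also what drew attention to Slc13a5, and it is given as a description.

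**Figure D4:**
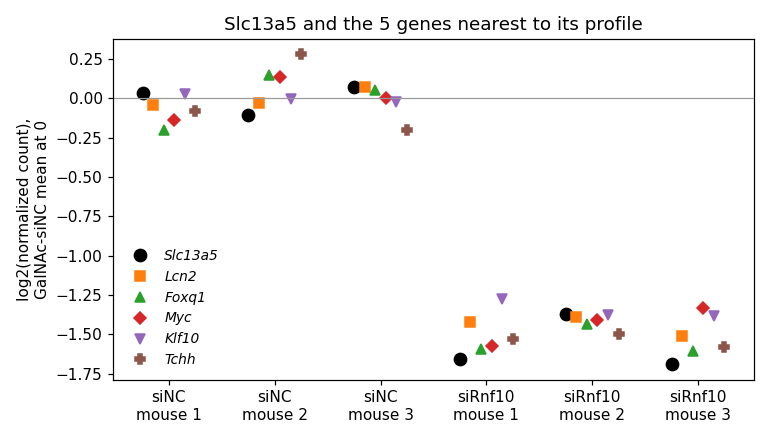
Log2 normalized count of Slc13a5 and the 5 genes with the most similar profile in each of the 6 mice, centered on the control mean, with 1 symbol per gene. All 6 genes lie near 0 in the control mice and between about -1 and -2 in the treated mice.

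Genes lying near Slc13a5 were examined because they had no part in choosing it. Within 250 kb, 7 other genes were tested, of which 4 were called lower and 0 higher, with a median log2 fold change of -0.38. Over all tested genes 7.28% were called lower. Spns2, a sphingosine-1-phosphate transporter gene 223 kb away, fell from 1035 ± 95.4 to 716 ± 52.0 normalized counts (SD, n = 3 each), a log2 fold change of -0.53 (adjusted p = 0.000654, edgeR's quasi-likelihood test, Benjamini-Hochberg). Its call was kept in all 16 alternative settings. Xaf1 at 34.4 kb (log2 fold change -0.42, adjusted p = 0.0291, edgeR), Ggt6 at 168 kb (-0.38, adjusted p = 0.0201) and Smtnl2 at 144 kb (-1.86, adjusted p = 0.0208) were also lower. Smtnl2 had few counts, with means of 20.4 ± 4.73 and 5.52 ± 2.97. Without GalNAc-siRnf10 mouse 1, 2 or 3, the lower calls over all genes fell from 1022 to 533, 586 and 581. The calls of these 3 genes were also lost in some settings, though their log2 fold changes stayed negative wherever they were tested. Each was lost without GalNAc-siRnf10 mouse 1 and without mouse 3 of that group, Xaf1 and Ggt6 were lost without GalNAc-siRnf10 mouse 2 and without GalNAc-siNC mouse 2, and Smtnl2 without GalNAc-siNC mouse 3, with adjusted p up to 0.147 for Xaf1, 0.102 for Ggt6 and 0.113 for Smtnl2. The nearby genes Med31, Txndc17 and Mybbp1a were not called, with log2 fold changes of 0.17, 0.24 and 0.0022.

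The wider pathway was described with 59 further genes in 4 lists, of which 58 were tested. In all, 19 were called, 8 higher and 11 lower, which is 32.8% against 14.0% over all tested genes. These lists too were drawn up with results of this comparison known, so their counts are a description and the excess over the share of all genes is not independent evidence. Their median log2 fold change was -0.03 against 0.0022 over all tested genes, and the ranges of the groups did not overlap for 33 of them (56.9%, against 32.8%). Of the 19 calls, 11 were kept under all 16 alternative settings.

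Of the 14 genes that supply citrate, acetyl-CoA and NADPH, 1 rose and 2 fell, and 11 were not called. The shares over all tested genes were 6.71% called higher and 7.28% called lower. Slc13a3, the gene of a sodium-coupled dicarboxylate transporter of the same family as Slc13a5, had 1197, 1425 and 1210.4 normalized counts in the control mice and 827, 841 and 715 in the treated mice. It fell by 0.68 on the log2 scale with a standard error of 0.0916 (adjusted p = 5.79e-05, edgeR's quasi-likelihood test, Benjamini-Hochberg), and the groups did not overlap. Pcx, whose product pyruvate carboxylase refills mitochondrial oxaloacetate, fell by 0.25 (adjusted p = 0.0186). Mdh1, cytosolic malate dehydrogenase, rose by 0.27 (adjusted p = 0.00273). The mitochondrial citrate carrier gene Slc25a1 had a log2 fold change of -0.08, citrate synthase (Cs) 0.0046 and the cytosolic aconitase gene Aco1 0.08, and none of them was called. Slc13a2, another transporter gene of the family, was low, with means of 34.0 and 28.8 normalized counts, and was not called.

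Among 21 regulators of lipogenesis, 0 rose, 4 fell and 17 were not called, with a median log2 fold change of -0.06. Over all tested genes 6.71% were called higher and 7.28% lower, and nothing particular to the regulators is read from these counts. Srebf2, the gene of the sterol-responsive factor SREBP2, fell by 0.58 on the log2 scale (adjusted p = 1.76e-05, edgeR), from a mean of 2679 ± 189 to 1790 ± 23.5 normalized counts (SD, n = 3 each). Insig1, which retains the SREBP precursors in the endoplasmic reticulum and is itself an SREBP target, fell by 0.39 (adjusted p = 8.23e-05). Scap, the escort of the SREBP precursors, fell by 0.33 (adjusted p = 0.0217), and Mlxipl, the gene of ChREBP, fell by 0.19 (adjusted p = 0.0450). Insig2 (log2 fold change 0.06), the protease genes Mbtps1 (-0.14) and Mbtps2 (0.04), and Mlx (0.02), the partner of ChREBP, were not called.

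Among 19 tested genes known as targets of SREBP1, ChREBP or LXR, 5 rose, 4 fell and 10 were not called, with a median log2 fold change of 0.02. Of all tested genes, 6.71% were called higher and 7.28% lower. Lpin1, which encodes the phosphatidate phosphatase lipin 1, changed most, from a mean of 1869 ± 195 to 7183 ± 163 normalized counts (SD, n = 3 each), a log2 fold change of 1.94 (adjusted p = 1.01e-11, edgeR). G6pc, glucose-6-phosphatase, rose by 0.59 (adjusted p = 1.90e-06), the sterol exporter gene Abcg5 by 0.36 (adjusted p = 0.00398), the elongase gene Elovl5 by 0.30 (adjusted p = 0.00909) and Dgat2, the last step of triglyceride synthesis, by 0.18 (adjusted p = 0.0448). Txnip, a glucose-responsive ChREBP target, fell by 0.57 (adjusted p = 5.32e-05), the phospholipid remodeling gene Lpcat3 by 0.40 (adjusted p = 0.000698), the desaturase gene Fads1 by 0.24 (adjusted p = 0.00986) and the cholesterol exporter gene Abca1 by 0.22 (adjusted p = 0.0332). Scd2, Fads2 and Gpam, with log2 fold changes of -0.16, -0.10 and -0.18, were not called, and Pnpla3, with at most 13 counts in a library, was not tested.

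The list of 4 genes described as regulators of Slc13a5 held 2 that rose and 1 that fell, against 6.71% and 7.28% of all tested genes. Ahr, the aryl hydrocarbon receptor, rose by 0.48 on the log2 scale (adjusted p = 0.000385, edgeR), and Nr1i2, the pregnane X receptor, by 0.37 (adjusted p = 0.00660). Stat3, the mediator of interleukin-6 signals, fell by 0.53 (adjusted p = 1.42e-05). Creb1 had a log2 fold change of 0.11 and was not called. Of the 8 pathway calls that were lost in at least 1 setting, all were lost without GalNAc-siRnf10 mouse 1 (Pcx, Scap, Mlxipl, Elovl5, Fads1, Dgat2, Abcg5 and Abca1). All but Elovl5 and Abcg5 were also lost without GalNAc-siRnf10 mouse 2 and without mouse 3 of that group. Scap and Mlxipl were lost without GalNAc-siNC mouse 2, and Elovl5, Dgat2 and Abca1 without GalNAc-siNC mouse 3. Mlxipl and Dgat2 were also lost in DESeq2 (adjusted p = 0.0735 and 0.0859) and with the mouse number as a block in edgeR (adjusted p = 0.0604 and 0.0528), Mlxipl with the correction for GC content and length, and Dgat2 with upper-quartile factors or library totals. The largest adjusted p of each was 0.109 for Pcx, 0.117 for Scap, 0.423 for Mlxipl, 0.0835 for Elovl5, 0.0896 for Fads1, 0.197 for Dgat2, 0.0543 for Abcg5 and 0.157 for Abca1. The direction of all 8 was the same in every setting. Without GalNAc-siRnf10 mouse 1 the pathway held 5 higher and 6 lower calls, without mouse 2 of that group 7 and 6, without mouse 3 of that group 7 and 6, and without GalNAc-siNC mouse 1 10 and 17.

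**Figure D5:**
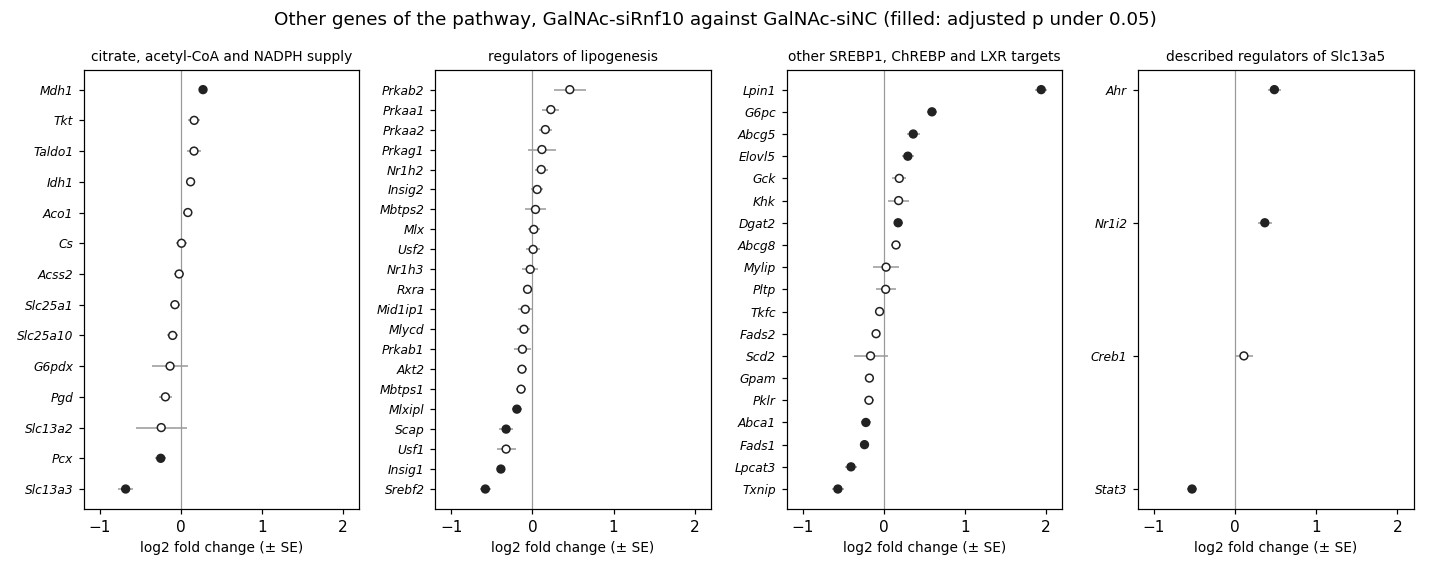
Log2 fold changes (GalNAc-siRnf10 against GalNAc-siNC) of the tested genes of the 4 pathway lists, 1 point per gene, with bars of 1 standard error and filled points for genes called at an adjusted p of 0.05. Lpin1 stands far above the rest at 1.94, and Slc13a3, at -0.68, is the lowest.

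Other groups of genes moved alongside the members, and their part in these differences was not tested. Of 12 tested genes of the core clock and its output, 5 rose and 1 fell, against 6.71% higher and 7.28% lower over all tested genes, and each of these calls was kept in all 16 settings. The clock and fasting lists were also chosen with results of these data known. Per1 rose by 1.74 on the log2 scale (adjusted p = 6.64e-10, edgeR), Ciart by 1.29 (adjusted p = 4.23e-07), Cry1 by 0.75, Per2 by 0.42 and Per3 by 0.40, while Nr1d1 fell by 0.68 (adjusted p = 1.78e-05). Of 9 genes of the fasting response, 3 rose and 0 fell, against the same shares: Igfbp1 by 2.11 (adjusted p = 6.46e-11, edgeR), Pck1 by 0.48 (adjusted p = 6.89e-05) and Angptl4 by 0.43 (adjusted p = 0.000400). Ppargc1a, Fgf21 and Cpt1a, also on that list, were not called, with log2 fold changes of 0.13, -0.26 and 0.05. Irs2 (-0.29) and Cyp4a14 (-0.46) were lower in all treated mice than in all controls but were not called (adjusted p = 0.0682 and 0.0598, edgeR). Such a separation was seen in 16.4% of all tested genes. For Cyp4a14 the margin was very small, with 175.9 normalized counts in the highest treated mouse and 176.4 in the lowest control. Neither the hour at which the mice were killed nor their last meal is given in the labels.

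Cell type markers were checked in the same libraries, where 6.71% of all tested genes were called higher and 7.28% lower. The 6 hepatocyte markers were all tested, and 3 of them were called higher (Alb, Ttr, Cps1). Apoa1, Asgr1 and Hnf4a were not called, with log2 fold changes of 0.08, 0.11 and 0.08. The summed normalized counts of the 6 were 1511490 to 1610890 in control and 2281950 to 2361160 in treated mice. Most of each sum was Alb, with means of 1159040 and 1805570. The rise of Ttr was not called without GalNAc-siNC mouse 2 (adjusted p = 0.114, edgeR). Of the 6 adipocyte markers, Adipoq, Plin1 and Lep were at 0 in every library, 1 gene (Fabp4) was tested and not called, and the summed normalized counts were 54.0 to 104 in control and 79.1 to 120 in treated mice. None of the 5 Kupffer cell markers (4117 to 4785 against 4437 to 4637) or 4 cholangiocyte markers (175 to 250 against 150 to 171) was called. Of 4 sinusoidal endothelial markers 2 rose, Clec4g and Lyve1 (1481 to 1499 against 1563 to 1632). Stab2, at -0.26 on the log2 scale, and Kdr, at 0.16, were not called, and the groups did not overlap for either. Of 4 stellate cell markers 2 rose, Reln and Dcn (2122 to 2241 against 2650 to 2765). Lrat (-0.27) and Des (-0.20) were not called. The call of Lyve1 was kept in 7 of the 16 settings and lost without GalNAc-siNC mouse 1 or 2 and without each GalNAc-siRnf10 mouse. The call of Reln was lost without GalNAc-siRnf10 mouse 1 or 2. Among 4 neutrophil markers, S100a9 alone was tested and it fell, from a mean of 38.2 ± 13.5 to 14.1 ± 2.29 normalized counts (SD, n = 3 each), a call lost without GalNAc-siNC mouse 2 or 3 and without each of the GalNAc-siRnf10 mice. Albumin alone took 3.72% to 4.36% of the counts in control and 5.93% to 6.08% in treated libraries. The part of these shifts in the members' differences was not tested.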

How the data were processed

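Liver RNA of 6 mice was sequenced as stranded mRNA libraries (paired-end reads). Per the labels and the submitters' processing notes, the authors mapped the reads with HISAT2 to GRCm38 (mm10), named DESeq2, and deposited raw, unnormalized counts per gene. The deposited table also gives each gene's length in bases. The counting tool, annotation release and strand setting are not given in the sources used here. All columns of values were matched to a sample by the labels.

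The members and lists were chosen with earlier results of these data known. Symbols came from a list of gene names by Ensembl identifier (346 of 55487 identifiers had no symbol), and gene coordinates from the deposited table. GENCODE M21 gave the transcripts and exons. It held 55227 of the genes, 54907 of them at the same start and end. From the counts, edgeR 4.0.16 in R 4.3.3 was run over all genes with filterByExpr, TMM factors and a robust quasi-likelihood F-test, and p-values were adjusted by Benjamini-Hochberg. A gene was called at an adjusted p under 0.05. Normalized counts are counts divided by TMM-scaled library size. The biological coefficient of variation was 9.28%, and the fit was tested on simulated counts. A replicate is 1 mouse. Text names the members, Rnf10, called list genes with up to 4 further examples per list, the 5 genes most like Slc13a5 and its tested neighbors within 250 kb. Gm5182, Scd2, Rai1 and 1700051A21Rik were named for their overlap with members, and Irs2 and Cyp4a14 for their separated groups, after their values were seen. Some listed genes are not reported here.

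The 16 alternatives were RLE, upper-quartile and no composition factors, no filter or at least 10 counts in every library, DESeq2 1.42.0, limma 3.58.1 voom with quality weights, splines for GC content and length (5 degrees of freedom each), omission of the 20 most abundant genes, the mouse number as a block, and omission of each mouse. Promoter sequences were read from RefSeq (GRCm38.p6). Tables and figures were made in Python 3.11.15 with pandas 2.3.3, numpy 2.4.6 and matplotlib 3.10.9.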

Additional observations from a re-analysis of the deposited data

How the results depend on the processing

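All 10 members kept the sign of their log2 fold change under all 16 alternatives, and 6 (Slc13a5, Acaca, Acacb, Elovl6, Scd1, Thrsp) were called in each of them. In the main fit 14.0% of all tested genes were called. The members were chosen with this comparison known, so these counts describe the processing and are no support for the members' differences. With the correction for GC content and length, the median over the members was -0.075, Acacb was -0.46, and 13 pathway genes were called higher. At an adjusted p under 0.01, 502 genes were called higher and 540 lower over all genes, and 7 pathway genes lower. Leaving out each mouse gave 520 to 1395 higher and 533 to 1469 lower calls over all genes, 5 to 10 higher and 6 to 17 lower pathway calls, and a median over the members between -0.28 and -0.15. The fewest calls came without GalNAc-siRnf10 mouse 1 and the most without GalNAc-siNC mouse 1. With the longest transcript as length, control levels were 221 for Thrsp, 53.8 for Srebf1, 44.3 for Acly, 36.4 for Fasn, 37.6 for Me1, 11.3 for Elovl6, 9.66 for Acaca and 2.79 for Slc13a5. In this setting every value rose because the transcript is shorter than the union of the exons.

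The mouse numbers showed no sign of pairing animals of the 2 groups. Deviations from the group mean correlated at -0.0044, 0.018 and -0.032 for the same numbers, and at -0.028 to 0.032 for different numbers. With 3 mice per group these values cannot exclude a pairing. With the mouse number as a replicate block, 895 genes were called higher and 921 lower, 7 pathway genes higher and 11 lower, and the calls of the members did not change. Slc13a5, with the fewest counts of the members, has the largest standard error, and 3 mice per group limit the precision of every value.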
